A study of Mus musculus with 27 samples.

Results

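The transcripts of the growth factor IGF1, its receptor and its binding proteins were measured by RNA sequencing in mouse embryonic fibroblasts (MEFs) on the way to induced neurons (iNs). The 8 genes, Igf1, Igf1r, Igfbp2, Igfbp3, Igfbp4, Igfbp5, Igfbp6 and Igfbp7, were picked by gene symbol from a table of 54532 genes. All 8 were among the 14932 genes with a mean level of at least 0.5 FPKM, which were tested. FPKM is the number of sequenced fragments of a gene scaled to its length and to a factor for the library, so levels of different genes can be set side by side.

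The study compared MEFs of WT, Per1-/- and Per2-/- mice on days 0, 2 and 4 of conversion, with 3 biological replicates in each of the 9 groups and 27 libraries in all. Per1 and Per2 are repressors of the circadian clock, and the mutant mice carried the Per1tm1Drw or Per2tm1Drw allele in B6.129 strains. All 27 libraries came from MEFs transduced with the BAM genes, transcription factors that turn fibroblasts into neurons. The cells were grown from bodies of mid-gestation embryos without head and heart, several embryos to a dish and with the sex not determined, and such cultures hold macrophages besides fibroblasts.

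The viruses were added in serum medium before day 0, and the factors were under doxycycline control. On day 0 the serum medium gave way to a serum-free medium with insulin, transferrin, selenium, progesterone, putrescine and basic FGF, together with doxycycline. Days 2 and 4 therefore differed from day 0 in the factors, in serum and in insulin all at once, and their parts in any change from day 0 cannot be told apart. In bulk samples such as these, fewer cells of a type and less RNA per cell cannot be told apart either. The libraries held 15815013 to 24264097 fragments. The Per2 transcript was higher in the day 0 libraries labelled Per2-/- (1.93 ± 0.068 FPKM, SD, n = 3) than in WT (0.894 ± 0.0709, n = 3), so these are called the libraries labelled Per2-/- throughout. The study reported loss of the PER2 protein in Per2-/- MEFs by western blotting, and a transcript level does not show whether protein is made.

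IGF1 is a secreted growth factor that binds IGF1R, a receptor tyrosine kinase that signals through PI3 kinase and AKT and through the ERK kinases, and it is known for promoting the growth and survival of neurons. IGF binding proteins are secreted carriers that hold IGF1 and IGF2 outside the cell, where they can lengthen the life of the ligand or keep it from the receptor, and proteases release the ligand by cutting them. IGFBP7 binds IGFs only weakly and is also known as a matrix and vessel protein.

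The genes lie on 6 chromosomes (GRCm38, as the gene table gives them). Igfbp2 (chr1:72824503-72852474, forward strand) and Igfbp5 (chr1:72857932-72874884, reverse strand) are neighbours on the chromosome that also carries Per2, 18.6 Mb away from it in the case of Igfbp5. Igfbp3 (chr11:7206086-7213923, reverse strand) and Igfbp4 (chr11:99041244-99054392, forward strand) are on the chromosome of Per1, 61.9 and 29.9 Mb from it. Igf1 (chr10:87858265-87937042), Igf1r (chr7:67952827-68233668) and Igfbp6 (chr15:102144362-102149511) are on the forward strand, and Igfbp7 (chr5:77349240-77408041) is on the reverse strand. Exons of Igfbp7 share 85 bases, 7.03% of its exon length, with Polr2b on the opposite strand, and the libraries did not keep strand. Polr2b had a mean of 20.5 FPKM, and its reads in those bases cannot be told apart from those of Igfbp7.

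The 250 bases before the RefSeq transcription start (GRCm38.p6, 5′ to 3′ on the gene's own strand) are shown for the ligand and for the 4 binding protein genes that were called higher on day 4 in all 3 genotypes, so that their promoters can be compared. Capitals mark matches, on either strand, to any of 4 motifs: CACGTG (the E-box of CLOCK and BMAL1), GTAAACA (FOXO), TATAAA (the TATA box) and ATGCAAAT (the POU octamer). The windows are chr10:87860861-87861110 for Igf1, chr1:72824230-72824479 for the first of the 2 RefSeq starts of Igfbp2, chr11:99040994-99041243 for Igfbp4 (all forward strand), and chr11:7213924-7214173 for Igfbp3 and chr1:72874866-72875115 for Igfbp5 (both reverse strand).
Igf1: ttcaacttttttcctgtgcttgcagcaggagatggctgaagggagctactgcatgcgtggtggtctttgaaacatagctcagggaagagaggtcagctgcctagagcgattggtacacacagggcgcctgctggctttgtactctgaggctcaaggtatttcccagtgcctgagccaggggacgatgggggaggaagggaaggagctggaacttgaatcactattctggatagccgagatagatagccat
Igfbp2: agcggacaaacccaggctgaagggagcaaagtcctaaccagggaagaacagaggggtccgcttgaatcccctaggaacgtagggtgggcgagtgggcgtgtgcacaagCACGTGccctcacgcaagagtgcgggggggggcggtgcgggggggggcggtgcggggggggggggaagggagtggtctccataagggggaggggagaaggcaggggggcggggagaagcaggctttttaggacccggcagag
Igfbp3: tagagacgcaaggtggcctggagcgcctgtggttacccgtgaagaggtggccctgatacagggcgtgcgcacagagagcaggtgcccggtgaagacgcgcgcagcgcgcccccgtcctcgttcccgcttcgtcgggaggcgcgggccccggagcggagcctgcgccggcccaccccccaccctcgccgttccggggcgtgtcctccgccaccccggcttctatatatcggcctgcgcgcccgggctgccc
Igfbp4: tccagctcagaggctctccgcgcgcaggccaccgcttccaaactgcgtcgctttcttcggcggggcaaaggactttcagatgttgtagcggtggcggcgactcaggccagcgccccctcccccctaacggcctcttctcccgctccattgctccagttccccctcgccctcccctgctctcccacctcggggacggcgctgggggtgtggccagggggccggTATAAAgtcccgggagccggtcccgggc
Igfbp5: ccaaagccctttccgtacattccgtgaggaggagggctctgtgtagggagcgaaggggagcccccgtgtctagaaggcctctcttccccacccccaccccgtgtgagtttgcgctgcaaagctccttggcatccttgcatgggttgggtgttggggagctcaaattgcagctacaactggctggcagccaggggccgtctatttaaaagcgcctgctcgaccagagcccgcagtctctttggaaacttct
The window of the first Igfbp2 start held CACGTG at position -142 and the Igfbp4 window TATAAA at -28, while the Igf1, Igfbp3 and Igfbp5 windows held none of the 4. The window of the second Igfbp2 start (chr1:72825137-72825386, not printed) held none either. Of the members with lower levels after day 0, also not printed, Igfbp6 had TATAAA at -148, and Igfbp7 and Igf1r had none of the 4. Among 32851 RefSeq promoter windows of 300 bases, 7.15% held CACGTG and 13.6% TATAAA somewhere in the window. The share with a match at the same position was not counted. GTAAACA was in 3.65% and ATGCAAAT in 1.74% of the windows. A match is a description of letters and not of binding. The RefSeq start of Igf1 lies inside the gene as the table gives it, because the table's gene begins further upstream.

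On day 4 the ligand Igf1 and 4 of the 6 binding proteins (Igfbp2, Igfbp3, Igfbp4 and Igfbp5) were above their day 0 level in all 3 genotypes, and Igfbp7 and Igf1r were below it. A gene was called at an adjusted p of at most 0.05 (limma, Benjamini-Hochberg over the 14932 genes) with a log2 change of at least 0.58. Called on day 4 were 8 of 8 members in WT, where 43.8% of all tested genes were called, 7 of 8 in Per1-/- (43.0% of all) and 8 of 8 in the libraries labelled Per2-/- (40.3% of all). On day 2 the counts were 6 in WT (40.5% of all), 5 in Per1-/- (39.6%) and 4 in the libraries labelled Per2-/- (35.5%). Called in the same direction in all 3 genotypes on day 4 were 5 members that rose, with 17.6% of all tested genes doing so, and 2 that fell, with 15.6% of all. On day 2 these were Igfbp3 and Igfbp5 that rose (15.5% of all) and Igfbp7 that fell (13.5% of all). The median log2 change of the 8 members in WT was 0.47 on day 2 and 1.52 on day 4, beside -0.01 and -0.02 over all tested genes. Groups that did not overlap day 0 on day 2 were found for 6 members in WT (67.2% of all tested genes), 6 in Per1-/- (60.5%) and 6 in the libraries labelled Per2-/- (61.5%), and on day 4 for 7, 7 and 8 (68.6%, 62.6% and 63.8%). Days 2 and 4 did not overlap for 3 members in WT (32.1% of all), 3 in Per1-/- (29.7%) and 2 in the libraries labelled Per2-/- (28.8%).

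**Figure D1:**
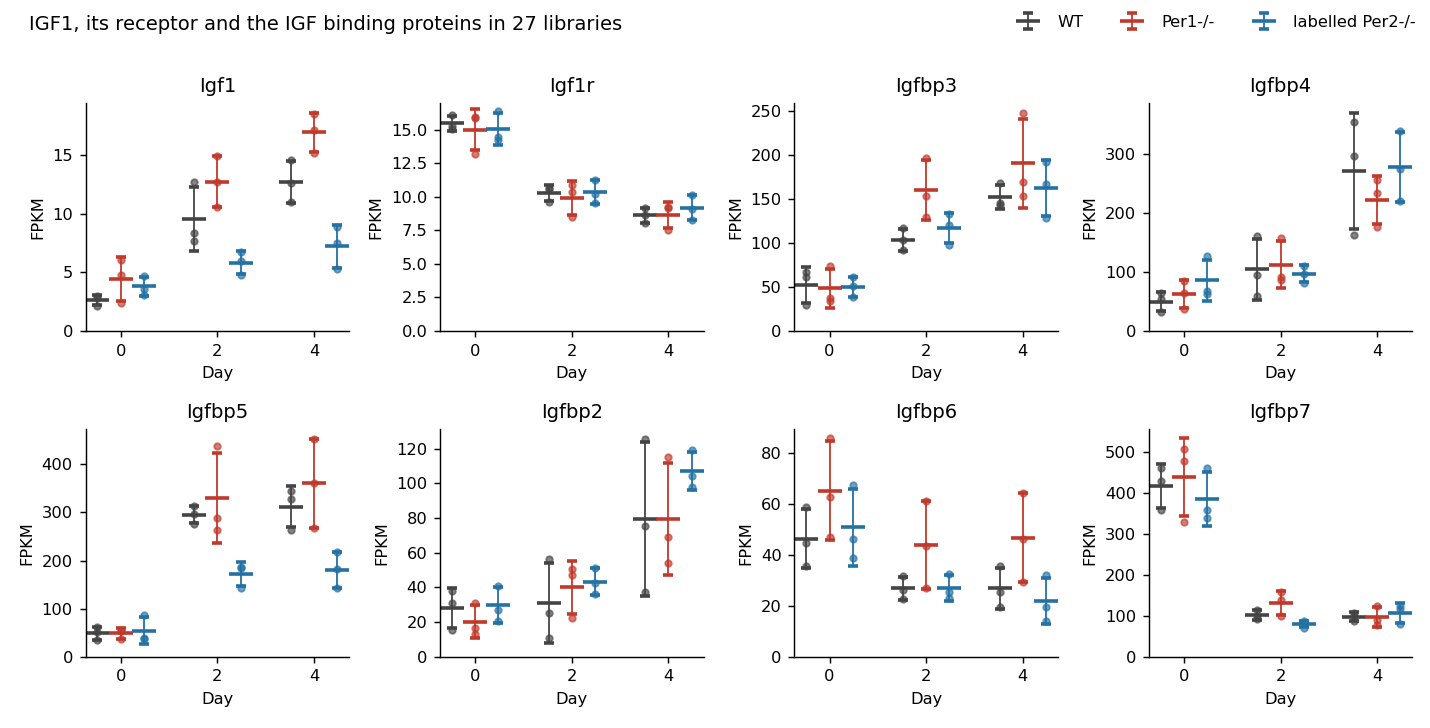
FPKM of each of the 8 genes (linear axis from 0, its own scale in each panel) on days 0, 2 and 4, with 1 point per library, the genotypes in separate colours, a wide bar at the mean of each group of 3 and error bars of 1 SD. Igfbp3 and Igfbp5 were above day 0 by day 2, Igfbp2 and Igfbp4 were highest on day 4, and Igfbp7 went from 330.4 to 508 FPKM on day 0 to between 71.2 and 158 FPKM on day 2.

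Igf1, the ligand, was the lowest of the 8 transcripts in every day 0 library and rose in all 3 genotypes by day 4. In WT its 3 libraries read 2.96, 2.13 and 2.85 FPKM on day 0, then 7.67, 12.7 and 8.34 by day 2, with 10.99, 14.5 and 12.6 on day 4. Neither later day overlapped day 0. The log2 change in WT was 1.79 (SE 0.27) on day 2 and 2.23 on day 4, a 4.68-fold rise (limma, adjusted p = 7.84e-06 and 4.22e-07). The Per1-/- libraries read 4.75, 2.36 and 6.08 FPKM at the start, 14.9, 10.55 and 12.7 by day 2, and 17.1, 15.2 and 18.5 by day 4. The day 4 values of Per1-/- were the highest of any group, and the log2 change was 2.02 (adjusted p = 1.66e-06, limma). The libraries labelled Per2-/- read 3.61, 3.10 and 4.70 FPKM at the start, 4.81, 6.72 and 5.93 by day 2, and 5.30, 8.89 and 7.47 by day 4. Here the rise was 0.61 on day 2, which did not pass (limma, adjusted p = 0.0596), and 0.90 on day 4, a 1.86-fold change that did (adjusted p = 0.00668).

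Macrophages are a known source of IGF1, and their markers moved with the days, while none was called between genotypes on any day in this fit. All 15 tested markers were still higher in Per1-/- than in WT on day 4 (median log2 difference 1.07). The study tested read counts with DESeq2 and reported macrophage genes higher in Per1-/- than in both other genotypes on days 2 and 4. By flow cytometry it also reported a larger increase of macrophages in Per1-/- cultures. The summed FPKM of 16 macrophage markers was 140 to 1162 on day 0 and 470 to 2233 on day 4 over the 9 libraries of each day. Of the 15 tested markers, 6 were called higher on day 4 in all 3 genotypes, beside 17.6% of all tested genes. With the mean of the tested markers as a covariate the day 4 changes of Igf1 were 1.94 in WT, 1.65 in Per1-/- and 0.73 in the libraries labelled Per2-/-, all still called. Smooth muscle markers, contractile genes that cultured fibroblasts also express, went from summed levels of 2314 to 3707 FPKM on day 0 to 139 to 341 on day 4, and neuron markers from 27.3 to 49.4 FPKM to 105.8 to 198. In all 3 genotypes 4 of 4 smooth muscle markers were called lower (15.6% of all) and 8 of 9 tested neuron markers higher (17.6% of all). Fibroblast markers went from 2431 to 4047 FPKM to 4283 to 5914. Of these 13, 6 were called higher and 3 lower in all 3 genotypes, beside 17.6% and 15.6% of all tested genes. Markers of cycling cells went from 64.8 to 131 FPKM to 32.6 to 51.3, with 4 of 4 called lower in all 3 genotypes (15.6% of all). The summed skeletal muscle markers went from 78.6 to 408 FPKM to 23.3 to 48.1. That list of 5 was split, with Acta1 and Des called lower (15.6% of all) and Myod1 and Tnnt3 called higher (17.6% of all) in all 3 genotypes. The part of these in the members' changes was not tested.

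Igf1r, which encodes the receptor, fell by less than a factor of 2 and varied least between libraries. WT read 15.04, 15.2 and 16.1 FPKM at the start, 10.7, 9.60 and 10.6 by day 2, and 9.15, 8.02 and 8.64 by day 4. All 9 libraries of day 0, at 13.2 to 16.4 FPKM, were above all 18 of the later days, at 7.49 to 11.3. The log2 change of Igf1r on day 4 was -0.84 (SE 0.11) in WT, -0.79 in Per1-/- and -0.71 in the libraries labelled Per2-/- (limma, adjusted p = 8.51e-07, 1.98e-06 and 8.84e-06), an inverse fold of 1.63 to 1.79. On day 2 it lay at -0.58, -0.59 and -0.54, on either side of the minimum change, and leaving out WT day 0 replicate 3 or WT day 2 replicate 2, or in Per1-/- day 0 replicate 2 or 3 or day 2 replicate 1, ended the call. Summed FPKM fell from between 333295 and 374624 on day 0 to between 261289 and 343225 later, and with each library rescaled to 1 sum (TPM) the median log2 change of all genes moved to between 0.25 and 0.42 and Igf1r, still negative at -0.53 to -0.16, was no longer called in any genotype. Relative to that shifted median the receptor was still lower.

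The order of the ligand and receptor transcripts changed in most libraries. Igf1r was above Igf1 in 9 of 9 libraries on day 0 and in 5 of 9 on day 2. On day 4 Igf1 was above Igf1r in 7 of 9 libraries, and the 2 exceptions were replicates 1 and 3 of those labelled Per2-/-.

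Igfbp5 and Igfbp3 rose early. Igfbp5, a binding protein that also attaches to the extracellular matrix, read 51.8, 34.2 and 61.0 FPKM in WT at the start, 277, 312 and 297 by day 2, and 344, 264 and 327 by day 4. In Per1-/- it read 36.2, 56.6 and 53.4 FPKM, then 289, 264 and 438, then 361, 268 and 453. In the libraries labelled Per2-/- it read 36.0, 85.9 and 39.6 FPKM, then 144, 185 and 188, then 142, 218 and 182. In each genotype the days after day 0 stood clear of it, and days 2 and 4 overlapped. On day 2 the log2 change of Igfbp5 was 2.63 (SE 0.29) in WT, 2.75 in Per1-/- and 1.78 in the libraries labelled Per2-/- (limma, adjusted p = 1.3e-07, 8.19e-08 and 2.31e-05). By day 4 the fold was 3.58 to 7.36 over the genotypes, and day 4 differed from day 2 by 0.06 to 0.13 on the log2 scale (limma, adjusted p = 0.852 to 0.933).

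Igfbp3, the main carrier of IGFs in serum, read 60.9, 67.4 and 29.5 FPKM in WT on day 0, 103, 117 and 91.8 by day 2, and 144, 168 and 145 by day 4. Per1-/- read 74.1, 33.6 and 37.3 FPKM, then 153, 129 and 197, then 154, 169.7 and 248. The libraries labelled Per2-/- read 50.7, 61.6 and 38.5 FPKM, then 97.9, 121 and 132, then 128, 167 and 192. No library of a later day fell among those of day 0 in its genotype. In log2 terms Igfbp3 changed by 1.06 (SE 0.29), 1.80 and 1.23 on day 2 in WT, Per1-/- and the libraries labelled Per2-/- (limma, adjusted p = 0.0039, 2.46e-05 and 0.00124) and 1.62, 2.04 and 1.70 on day 4, a 3.07 to 4.10-fold rise.

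Igfbp4 and Igfbp2 were called higher in all 3 genotypes on day 4, while on day 2 the only call for either was Igfbp4 in WT. Igfbp4, which holds IGFs until the protease PAPP-A cuts it, read 53.5, 64.6 and 31.6 FPKM in WT on day 0, 94.4, 161 and 59.2 by day 2, and 297, 354 and 162 by day 4. In Per1-/- it read 84.5, 64.3 and 38.0 FPKM, then 158, 92.1 and 86.4, then 255, 234 and 175. In the libraries labelled Per2-/- it read 67.8, 63.3 and 126 FPKM, then 82.1, 97.3 and 111, then 275, 220.1 and 338. Only day 4 stood clear of the other days in every genotype. The log2 change of Igfbp4 on day 4 was 2.43 (SE 0.38), 1.89 and 1.74 in WT, Per1-/- and the libraries labelled Per2-/- (limma, adjusted p = 1.27e-05, 0.000216 and 0.00051), a 3.35 to 5.37-fold rise. Between days 2 and 4 it rose by 1.41 in WT and 1.51 in the libraries labelled Per2-/- (limma, adjusted p = 0.0362 and 0.0234), where 3.21% and 4.06% of all genes were called, and the change in Per1-/- was 1.02 (adjusted p = 0.137), where 2.44% were.

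On day 2 Igfbp4 was called in WT alone, at 1.01 (limma, adjusted p = 0.0269), with 0.87 in Per1-/- (adjusted p = 0.0551) and 0.23 in the libraries labelled Per2-/- (adjusted p = 0.625), and differences between genotypes in these changes did not pass. The WT call on day 2 was lost without WT day 0 replicate 3, day 2 replicate 1 or day 2 replicate 2 (0.64 to 1.36). The calls between days 2 and 4 were lost in 4 of 6 fits without 1 library in WT (without day 2 replicate 1 or 3, or day 4 replicate 1 or 2) and in 4 of 6 in the libraries labelled Per2-/- (without day 2 replicate 1 or 2, or day 4 replicate 1 or 3), with adjusted p up to 0.192 and 0.112. With the replicate number as a block, in the comparisons where same-numbered libraries moved together, Igfbp4 was also called in Per1-/- on day 2 (0.87, adjusted p = 0.000224, range over the alternatives 0.000224 to 0.115) and between days 2 and 4 (1.02, adjusted p = 0.00134, range 0.00134 to 0.232).

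Igfbp2, a carrier that is abundant in fetal tissue and brain, had the largest standard error of the 8. It read 38.0, 31.1 and 15.2 FPKM in WT on day 0, 25.4, 56.1 and 10.9 by day 2, and 75.4, 126 and 37.1 by day 4. Per1-/- read 16.7, 31.2 and 13.1 FPKM, then 46.9, 50.9 and 22.5, then 68.9, 116 and 53.9. The libraries labelled Per2-/- read 41.0, 20.7 and 27.1 FPKM, then 36.2, 42.6 and 51.4, then 119, 104 and 97.8. On day 2 the groups overlapped day 0 in every genotype, and on day 4 the WT library of replicate 3 was within the WT day 0 range. By day 4 the log2 change of Igfbp2 was 1.43 (SE 0.52) in WT, 1.99 in Per1-/- and 1.90 in the libraries labelled Per2-/- (limma, adjusted p = 0.0203, 0.00218 and 0.00322), a 2.69 to 3.96-fold rise. The WT call was lost without WT day 0 replicate 3, day 4 replicate 1 or day 4 replicate 2 (1.01 to 1.89, adjusted p up to 0.121).

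On day 2 the log2 change of Igfbp2 was -0.07 in WT, 0.99 in Per1-/- and 0.59 in the libraries labelled Per2-/- (limma, adjusted p = 0.918, 0.104 and 0.343), and the WT value turned to 0.36 under TPM. With the replicate block Igfbp2 was called in Per1-/- on day 2 (0.99, adjusted p = 0.00326, range over the alternatives 0.00326 to 0.195). Between days 2 and 4 it changed by 1.497 in WT and 1.00 in Per1-/- (limma, adjusted p = 0.0984 and 0.290), and with the block both passed (adjusted p = 0.00203 and 0.0249, ranges 0.00203 to 0.222 and 0.0249 to 0.401).

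Igfbp7 and Igfbp6 went the other way. Igfbp7 was the most abundant of the 8 on day 0, at 463, 430.2 and 358 FPKM in WT, and read 114, 91.4 and 100.3 by day 2 and 108, 99.7 and 86.7 by day 4. Per1-/- read 479.7, 330.4 and 508 FPKM, then 158, 99.98 and 139, then 125, 77.0 and 90.9. The libraries labelled Per2-/- read 462, 339 and 359 FPKM, then 83.1, 71.2 and 86.6, then 117, 79.0 and 125. Every later library was below every day 0 library. On day 2 Igfbp7 had a log2 change of -2.03 (SE 0.21), -1.73 and -2.26 in WT, Per1-/- and the libraries labelled Per2-/- (limma, adjusted p = 5.33e-08, 5.05e-07 and 1.53e-08), with an inverse fold of 3.65 to 4.51 on day 4.

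Igfbp6, which prefers IGF2 to IGF1, fell less. It read 44.7, 35.6 and 58.6 FPKM in WT on day 0, 26.2, 22.6 and 31.6 by day 2, and 25.5, 19.7 and 35.5 by day 4. Per1-/- read 85.7, 47.0 and 62.6 FPKM, then 61.1, 26.8 and 43.3, then 64.1, 29.5 and 46.3. The libraries labelled Per2-/- read 38.7, 67.4 and 46.0 FPKM, then 22.9, 32.5 and 25.5, then 14.1, 32.0 and 19.6. Neither later day overlapped day 0 in WT or in the libraries labelled Per2-/-, though in WT the highest library of day 4 lay just under the lowest of day 0, and all days overlapped in Per1-/-. The log2 change of Igfbp6 on day 4 was -0.79 (SE 0.34) in WT, -0.51 in Per1-/- and -1.25 in the libraries labelled Per2-/- (limma, adjusted p = 0.0483, 0.204 and 0.00351). On day 2 it was -0.77, -0.61 and -0.88 (adjusted p = 0.0579, 0.131 and 0.0336), and with the replicate block the Per1-/- value passed (adjusted p = 7.16e-05, range over the alternatives 7.16e-05 to 0.634). The WT call on day 4 held in 6 of 11 alternatives (limma, adjusted p up to 0.36) and was lost in 15 of 27 fits without 1 library, among them those without WT day 0 replicate 1 or 3 or day 4 replicate 1 or 2. The call of the libraries labelled Per2-/- on day 2 was lost without day 0 replicate 2 or 3 or day 2 replicate 1 or 3.

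**Figure D2:**
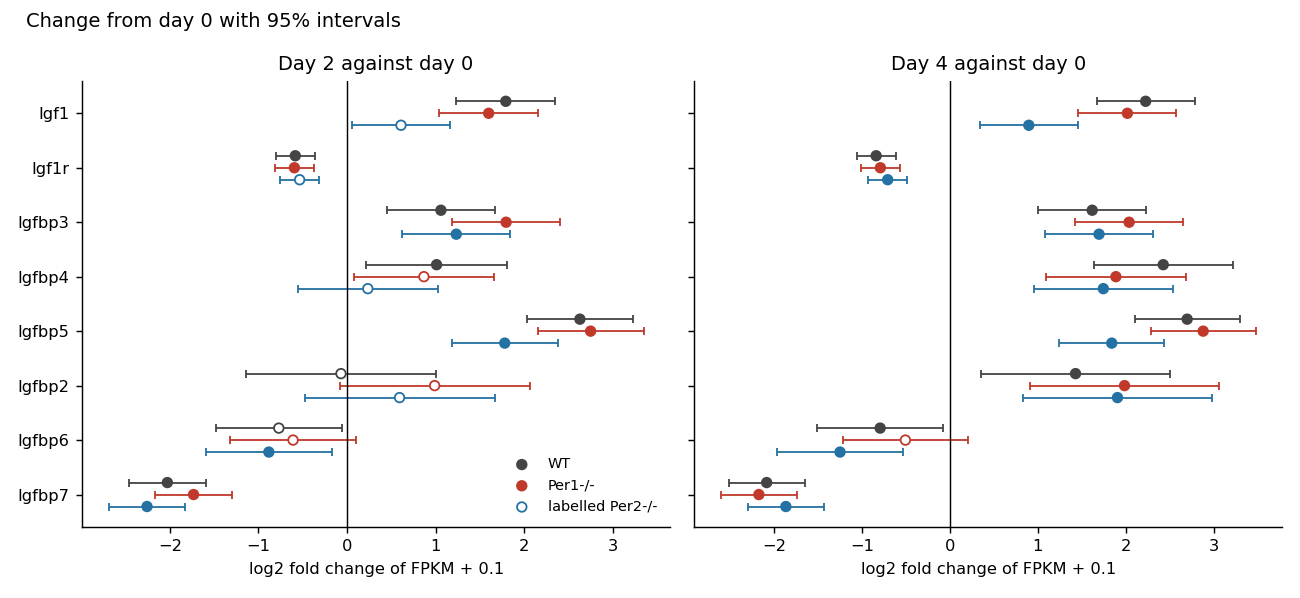
Log2 change of each of the 8 genes from day 0 to day 2 and to day 4 in each genotype (limma on log2 of FPKM plus 0.1), with 95% confidence intervals and filled points for changes that were called. On day 4 every estimate of Igf1, Igfbp2, Igfbp3, Igfbp4 and Igfbp5 is filled and above 0, every one of Igfbp7 and Igf1r is filled and below 0, and Igfbp6 in Per1-/- is open.

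The make-up of the IGFBP transcripts was reordered while their sum moved less. Summed over the 6 binding protein genes, the level was 554 to 777 FPKM on day 0 (median 663), 466 to 926 on day 2 (median 640.3) and 795 to 1067 on day 4 (median 954). Igfbp7 made up 62.5 ± 5.57% of that sum on day 0 (SD, n = 9 libraries), 15.6 ± 2.24% on day 2 and 10.9 ± 2.09% on day 4. Igfbp5 went from 7.83 ± 3.04% to 39.0 ± 7.08% and then 30.3 ± 8.83%. Igfbp4 went from 10.01 ± 4.27% to 15.7 ± 4.02% and then 27.7 ± 6.57%. The mean shares of Igfbp3 were 7.53%, 19.0% and 18.1%, those of Igfbp2 3.97%, 5.88% and 9.68%, and those of Igfbp6 8.19%, 4.81% and 3.39%. These shares pool the 3 genotypes and are given with no test. By genotype the day 4 share of Igfbp5 was 33.8% in WT, 35.8% in Per1-/- and 21.2% in the libraries labelled Per2-/-. Counted in fragments and not per length, the pooled shares of Igfbp7 were 37.0%, 4.76% and 3.37% on days 0, 2 and 4, and those of Igfbp5 22.5%, 58.5% and 45.5%.

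The leading binding protein transcript was Igfbp7 in 9 of 9 libraries on day 0 and Igfbp5 in 9 of 9 on day 2. On day 4 it was Igfbp5 in 5 of 9, namely all 3 Per1-/- libraries and WT replicates 1 and 3. It was Igfbp4 in WT replicate 2 and in all 3 libraries labelled Per2-/-. For each FPKM of Igf1 the libraries held a median of 194 FPKM of binding protein transcripts on day 0 (117 to 311), 72.9 on day 2 (57.95 to 100.2) and 70.9 on day 4 (57.6 to 150.2), so that day 4 overlapped day 0 and day 2 did not.

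**Figure D3:**
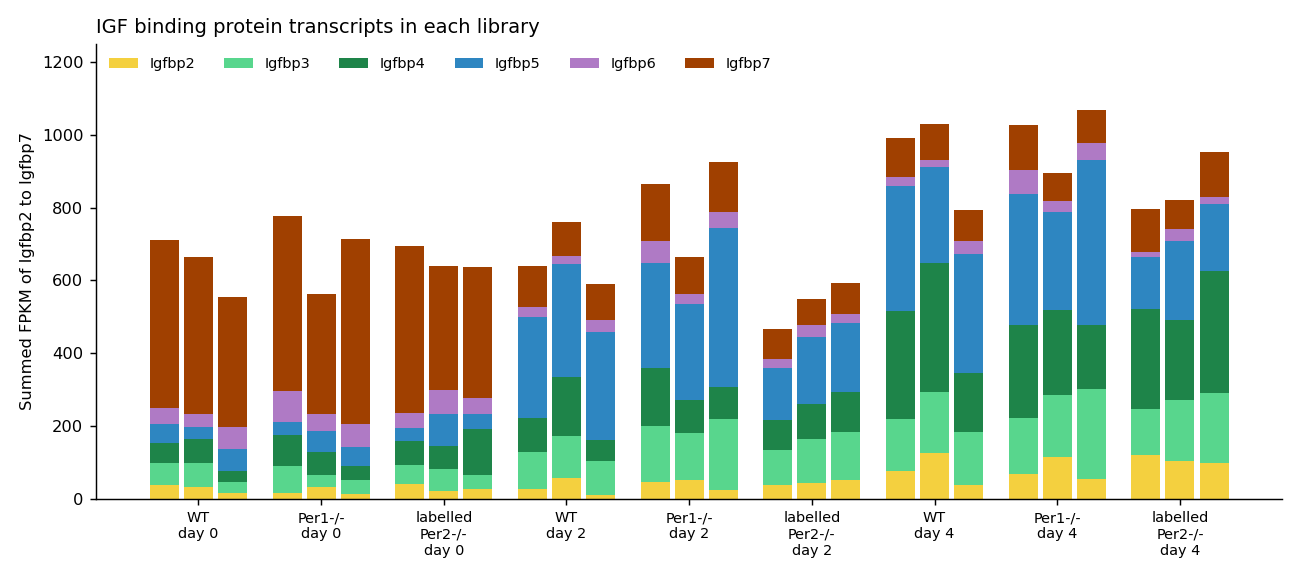
Summed FPKM of the 6 binding protein genes (linear axis from 0), 1 stacked bar per library with a segment per gene, ordered by day and genotype with 3 libraries each. The Igfbp7 segment is 62.5% of the bar on average on day 0 and 10.9% on day 4, where Igfbp5 is the largest segment in the 3 Per1-/- libraries and Igfbp4 in the 3 labelled Per2-/-.

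Between genotypes on a given day 1 difference among the 8 genes passed: Igf1 on day 4 was higher in Per1-/- (17.1, 15.2 and 18.5 FPKM) than in the libraries labelled Per2-/- (5.30, 8.89 and 7.47 FPKM). The log2 difference was 1.25 (SE 0.27, 95% interval 0.69 to 1.80; limma, adjusted p = 0.0308), and 0.556% of all tested genes were called in that comparison. None of the 8 was called in the other comparisons, where the share of all genes called was 0.0201% on day 0 and 0.0737% on day 2 between the mutants, 0.0134%, 0.0067% and 0.0268% for Per1-/- against WT on days 0, 2 and 4, and 0.0067%, 0.0268% and 0.0067% for the libraries labelled Per2-/- against WT. WT, at 10.99, 14.5 and 12.6 FPKM, lay between the mutants without overlapping either. It was 0.42 below Per1-/- and 0.83 above the libraries labelled Per2-/- on the log2 scale, and neither difference passed (limma, adjusted p = 0.931 and 1). On day 2 the Per1-/- libraries were 1.11 above those labelled Per2-/- (adjusted p = 0.126), with no overlap. On day 0 the order was another one, with the libraries labelled Per2-/- 0.50 and Per1-/- 0.62 above WT (adjusted p = 1 for both).

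The day 4 call for Igf1 rested on few libraries. It was lost in 5 of 6 fits without 1 library (any of the 3 Per1-/- libraries, or replicate 1 or 3 of those labelled Per2-/-), with a log2 difference of 1.04 to 1.41 and adjusted p of 0.0263 to 0.162. The summed macrophage markers on day 4 were 1246 to 2233 FPKM in Per1-/-, 608 to 1110 in WT and 470 to 817 in the libraries labelled Per2-/-, and 15 of 15 tested markers were higher in Per1-/- than in the latter (0 called, median log2 difference 1.62). With the mean of the tested markers as a covariate the Igf1 difference was 0.97 (limma, adjusted p = 0.247, range over the alternatives 0.00707 to 0.247) and was not called. The markers differed between the same groups, and the part of macrophages in the Igf1 difference was not tested.

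Igfbp5 was lower in the libraries labelled Per2-/- than in both other genotypes after day 0, with no overlap and no call. Its log2 difference from WT was -0.79 on day 2 and -0.80 on day 4 (limma, adjusted p = 1 for both), and Per1-/- exceeded the libraries labelled Per2-/- by 0.91 and 0.99 (adjusted p = 0.289 and 0.119). Groups that did not overlap were found for 3 of the 8 genes (Igf1, Igfbp5 and Igfbp7) between Per1-/- and the libraries labelled Per2-/- on day 2, where 16.1% of all genes did not overlap, and for 2 (Igf1 and Igfbp5) on day 4 (19.2% of all). Between the libraries labelled Per2-/- and WT the same 3 were apart on day 2 (9.98% of all) and the same 2 on day 4 (10.2% of all), and on day 0 Igf1 was (7.6% of all). Between Per1-/- and WT it was Igfbp3 on day 2 (10.3% of all) and Igf1 on day 4 (14.6% of all), and none on day 0 (5.11% of all), as between the mutants on day 0 (6.94% of all).

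Other differences between genotypes did not pass. Igfbp6 was 1.10 higher in Per1-/- than in the libraries labelled Per2-/- on day 4 (limma, adjusted p = 0.148), and Igfbp7 was 0.70 higher on day 2 (adjusted p = 0.247). Igfbp4 was 0.77 higher in the libraries labelled Per2-/- than in WT on day 0 (adjusted p = 1). Igf1r differed between genotypes by -0.09 to 0.09 on the log2 scale on all 3 days.

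**Figure D4:**
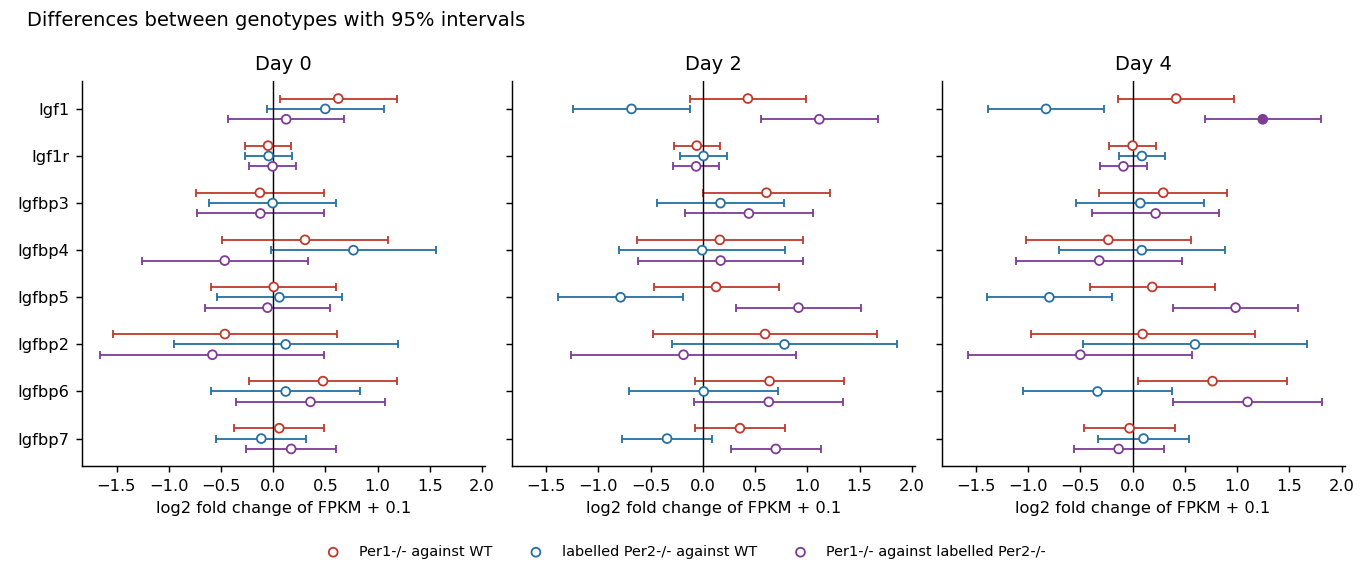
Log2 difference between genotypes for each of the 8 genes on days 0, 2 and 4, with 95% confidence intervals and filled points for differences that were called. The single filled point is Igf1 on day 4 between Per1-/- and the libraries labelled Per2-/- (1.25), and the Igf1r points lie between -0.09 and 0.09.

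Whether the change from day 0 itself differed by genotype was tested as an interaction, and no member was called. Over all 14932 genes limma called 0 as well, with 306 and 500 genes under 0.05 before adjustment for Per1-/- against WT on days 2 and 4 and 434 and 390 for the libraries labelled Per2-/-, and voom called 0. Igf1 rose less in the libraries labelled Per2-/- than in WT by a difference of -1.18 on the log2 scale on day 2 (SE 0.38, 95% interval -1.97 to -0.39) and -1.33 on day 4 (-2.12 to -0.54). For Igfbp5 these differences were -0.85 and -0.86. Both genes were under 0.05 before adjustment on both days, and neither passed after it.

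Igfbp6 kept the order of its replicates. In WT replicate 3 was highest and replicate 2 lowest on every day, in Per1-/- replicate 1 was highest and replicate 2 lowest, and in the libraries labelled Per2-/- replicate 2 was highest and replicate 1 lowest. Such a fixed order in all 3 genotypes was found for 18 of the 14932 tested genes (0.121%). Igfbp4 kept its order in WT and Per1-/-, and Igfbp2 and Igf1r in Per1-/-, which makes 7 of 24 pairs of gene and genotype, beside 7.04% over all tested genes. The labels do not say whether a number marks the same culture on different days, and this pattern was noticed in the data.

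**Figure D5:**
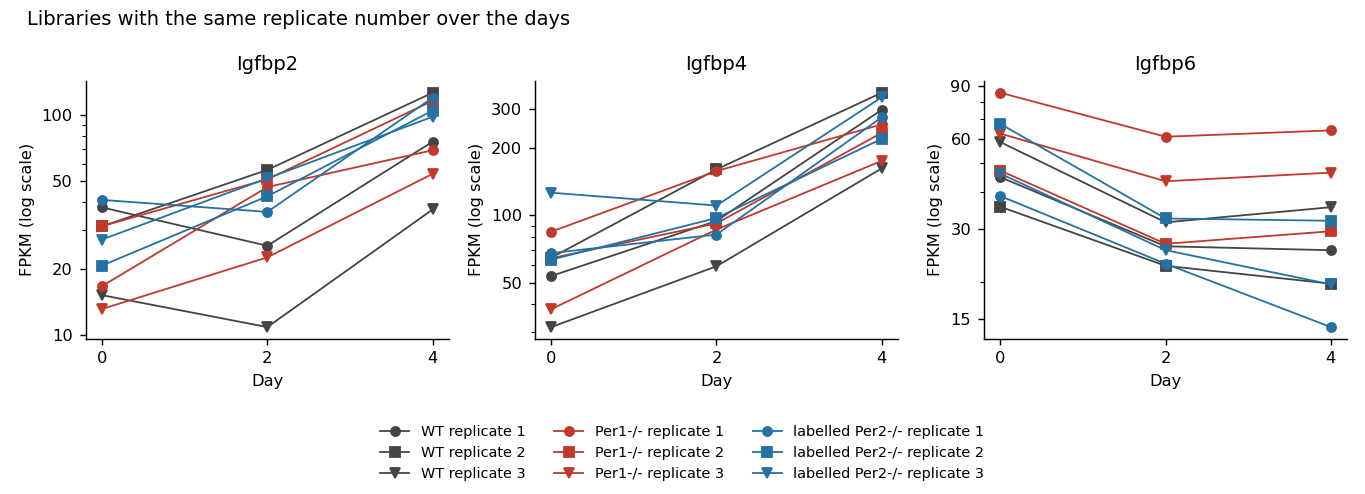
FPKM (log axis) of Igfbp2, Igfbp4 and Igfbp6 by day, with the libraries of 1 replicate number joined by a line within each genotype. The Igfbp6 lines do not cross in any genotype, while lines of Igfbp2 cross in WT and in the libraries labelled Per2-/-.

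Igfbp2 and Igfbp4 also varied together between libraries. Their Pearson correlation on the log2 scale was 0.86 over the 27 libraries and 0.70 for the deviations from the group means. The WT library of replicate 3 was the lowest of its group for both genes on all 3 days. The libraries share their days, so this is a description.

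Genes whose levels followed a member most closely over the 27 libraries were found by the same correlation. They were Ly75 for Igf1r (r = 0.98), Epb41l4b for Igfbp2 (0.87), Marcks for Igfbp3 (0.93), Scara3 for Igfbp4 (0.96), Cdkn1c for Igfbp5 (0.97), Nnmt for Igfbp6 (0.88) and F3 for Igfbp7 (0.98). Cdkn1c encodes an inhibitor of the cell cycle and F3 encodes tissue factor, the starter of clotting. Irs1, an adaptor of the IGF1 and insulin receptors, ranked next for Igfbp2, followed by Igfbp4. The change between days is the main variation that all these libraries share.

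Of 22 other listed genes of the IGF axis, 18 were tested. On day 4, 3 were called higher and 6 lower in WT (median log2 change 0.06), 3 and 6 in Per1-/- (-0.12) and 4 and 6 in the libraries labelled Per2-/- (-0.12), where 43.8%, 43.0% and 40.3% of all tested genes were called in either direction. In all 3 genotypes 3 were called higher, beside 17.6% of all tested genes, and 6 lower, beside 15.6%. The 3 were Igf2, the other IGF ligand (0.89 to 1.39), Igfbpl1, an IGFBP-like gene (4.47 to 5.08), and Tmem219, which encodes a receptor of IGFBP3 (0.62 to 0.89). Lower in all 3 were Pappa, the protease that cuts IGFBP4 (-1.40 to -1.01), its inhibitor Stc2 (-1.99 to -1.36), and Htra1, a protease that cuts IGFBPs (-1.99 to -1.88). Grb14, an adaptor that restrains the insulin receptor (-2.78 to -1.87), and the RNA-binding protein genes Igf2bp1 (-1.39 to -1.34) and Igf2bp2 (-0.83 to -0.61) were lower as well.

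Among 27 listed genes of signalling downstream of the receptor, all tested, 1 was called higher and 5 lower on day 4 in WT (median 0.03), 4 and 5 in Per1-/- and 2 and 4 in the libraries labelled Per2-/-, again beside 43.8%, 43.0% and 40.3% of all tested genes called. Pik3cb, Rheb, Eif4ebp1 and Map2k1 were lower in all 3.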

How the data were processed

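The deposited gene table gives FPKM for 54532 genes in 27 libraries. The authors aligned paired-end reads of a non-directional poly(A) library to GRCm38 with HISAT2 (2.0.5) and counted fragments per gene with featureCounts (1.5.0-p3), and deposited FPKM. All nonzero values gave whole fragments within 0.01, with 15815013 to 24264097 fragments per library. No depth-based interval is given. Precision rests on the spread between replicates within the 9 groups of 3, which share a common estimate of it for each gene. The p-values weigh a difference against that shared spread.

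FPKM was tested with limma (3.58.1, R 4.3.3, trend) on log2(FPKM + 0.1), so fold changes of low genes are understated. The fit took all 9 groups, with no block and genes at a mean of at least 0.5 FPKM. Calls needed a Benjamini-Hochberg adjusted p of at most 0.05 over 14932 genes and a log2 change of at least 0.58. On simulated data for WT, day 4 against day 0 (14932 genes, 200 changed), 62.5% of the changes of 1 and 85% of those of 2 on the log2 scale were recovered. In the data 6534 genes were called in that comparison, so these rates do not carry over to it.

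Alternatives changed the pseudocount, the filter, the scaling (TPM, size factors), the libraries in the fit, the minimum change, the test (voom on recovered fragments), a replicate block and a macrophage covariate. Named genes are the members, listed genes called in all 3 genotypes, and the 3 genes most like each member (the leading one is printed, and some genes are not reported here). The members and lists were chosen with earlier results of these data known, and the promoter motifs after the files and sequences were seen. RefSeq promoters were matched by symbol for all 8 members.

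Replicate numbers were taken to pair libraries where every pair of deviations from the group means correlated over 0.1: in Per1-/- between days 0 and 2 (0.15 to 0.294) and days 2 and 4 (0.14 to 0.284), and in WT between days 2 and 4 (0.127 to 0.196). The pairing comes from the data and not from the labels, and was looked up per comparison after the blocked counts had been seen.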

Additional observations from a re-analysis of the deposited data

How the results depend on the processing

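The day changes of Igfbp3, Igfbp5 and Igfbp7, and those of Igf1 in WT and Per1-/-, were called under all 11 alternatives. Among the named results, TPM took the call from 9 and gave it to 3, and the replicate block took it from 0 and gave it to 9. Each other alternative took the call from 0 to 4 and gave it to 0 to 3. The causes were not tested.

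The count of called members between days 2 and 4 in WT went from 1 to 0 with TPM, with all genes above 0 or with only the groups compared, and to 2 with the replicate block. In the libraries labelled Per2-/- it went from 1 to 2 with only the groups compared and with the block. With the block it went from 0 to 2 in Per1-/-, and from 5 to 8 in Per1-/- between days 0 and 2. The count on day 4 between Per1-/- and the libraries labelled Per2-/- went from 1 to 0 with TPM (Igf1 1.17, adjusted p = 0.116, limma), the macrophage covariate or only the groups compared (1.25, adjusted p = 0.0606), within a range of 0.00707 to 0.247. Leaving out 1 library gave counts of 0 to 1 between days 2 and 4 in the libraries labelled Per2-/-, 0 to 2 in WT, 0 to 1 on day 2 and 0 to 2 on day 4 between Per1-/- and the libraries labelled Per2-/-.

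Counted in fragments and not per length, the share of Igfbp5 was 22.5%, 58.5% and 45.5% on days 0, 2 and 4, and that of Igfbp7 37.0%, 4.76% and 3.37%. The WT change of Igfbp2 on day 2 turned to 0.36 with TPM and 0.081 with the macrophage covariate, and to between -0.65 and 0.53 without 1 library. Igf1 between Per1-/- and the libraries labelled Per2-/- on day 0 ranged from -0.15 to 0.51 without 1 library, and its interaction for Per1-/- from -0.58 to 0.086 on day 2 and -0.59 to 0.072 on day 4. Igfbp5 on day 0 ranged from -0.29 to 0.34 between Per1-/- and the libraries labelled Per2-/-, and from -0.33 to 0.29 between the latter and WT.

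In the comparisons not paired by the check, the replicate block moved the count from 4 to 5 in the libraries labelled Per2-/- on day 2 (Igf1, adjusted p = 0.0338, limma, range 0.00705 to 0.121), added Igfbp2 between days 2 and 4 there (adjusted p = 0.00416, range 0.00416 to 0.205), and moved it from 6 to 7 in WT on day 2 (Igfbp6, adjusted p = 6.78e-06, range 6.78e-06 to 0.438). Blocking by number across genotypes changed no count of members. Over the 3 genotypes and 3 pairs of days, 14 of 27 same-numbered pairs correlated over 0.1 (-0.0172 to 0.294), and 3 of 27 between genotypes (-0.256 to 0.192). Libraries were closest to their own number in 6 of 6 cases for Per1-/- between days 0 and 4 and for the libraries labelled Per2-/- between days 0 and 2 and days 0 and 4, and in 4 of 6 for WT between days 0 and 2. In simulated data of 3 libraries a group with 200 of 14932 genes changed, 62.5% of changes of 1 on the log2 scale were recovered. Where few genes change, a difference of that size or smaller can therefore be missed.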
